A study of Equus caballus with 68 samples.

Results

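Bone marrow mononuclear cells (BMNC) kept for 6 days in inflamed synovial fluid (ISF) were compared with BMNC of the same horses kept for 6 days in healthy synovial fluid (SF). The comparison used every library labelled ISF or SF at 6 days, 8 per fluid and 16 of the 68 libraries of the series, and each horse gave 1 library per fluid. The donors were 8 Thoroughbreds aged 3 to 9 years, 2 females and 6 geldings, without joint disease. The fluids were autologous and undiluted, ISF from radiocarpal joints in which synovitis had been induced with lipopolysaccharide and SF from healthy middle carpal joints, so the fluids also differed in the joint they came from. BMNC were a mixed preparation from sternal marrow, cells of different horses were not pooled, and both groups had been kept in fluid for the same time. The other libraries were uncultured BMNC (0 hours, 8 horses) and cultures of 48 hours, 96 hours and 10 days.

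BMNC hold monocytes and their precursors beside lymphocytes and granulocyte precursors, and in culture monocytes attach and differentiate into macrophages. Macrophages of the joint lining clear debris, release chemokines that recruit further leukocytes, and remodel the hyaluronan and collagen of the matrix. Activated macrophages are known to increase glycolysis, whereas peroxisome proliferator-activated receptors (PPAR) direct their uptake and oxidation of lipids.

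Expression was analyzed as GeTMM, reads per kilobase of gene made comparable between libraries by the authors, and tested with limma on log2(GeTMM + 1) in 1 fit of the 68 libraries. This fit had no term for horse, so it did not use the pairing of the fluids. Libraries of the same horse, in both fluids and at the different times, entered it as if they were independent. Horse was added as a replicate block in alternative fits. Differentially expressed genes (DEGs) had a false discovery rate (FDR) under 0.05. Reads on genes, recovered from the steps of the GeTMM values, numbered 20.8 to 27.4 M per ISF library and 19.7 to 24.7 M per SF library, and 1 read on a gene of 1 kb was worth 0.0459 to 0.0979 GeTMM. A value listed at 0 can also be a failed estimate.

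One library stood apart from the rest. The SF library of the horse named Moon had a sum of 2.32 M GeTMM, against 0.906 to 1.10 M in the other 15, although its 20.8 M reads lay within their range. It held 11807 of the 14570 tested genes above 0, against 13633 to 14093 in the others. Compared with the median of the other SF libraries, its genes with transcripts over 4 kb were lower by a median log2 of -0.86, those of 2 to 4 kb by -0.47 and those of 1 to 2 kb by -0.24, whereas genes under 1 kb had a median difference of 0. In the other 15 libraries the medians for transcripts over 4 kb lay between -0.20 and 0.17. The cause was not tested. Each result is therefore given with all libraries and again without the Moon SF library, which leaves 8 ISF and 7 SF libraries.

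**Figure D1:**
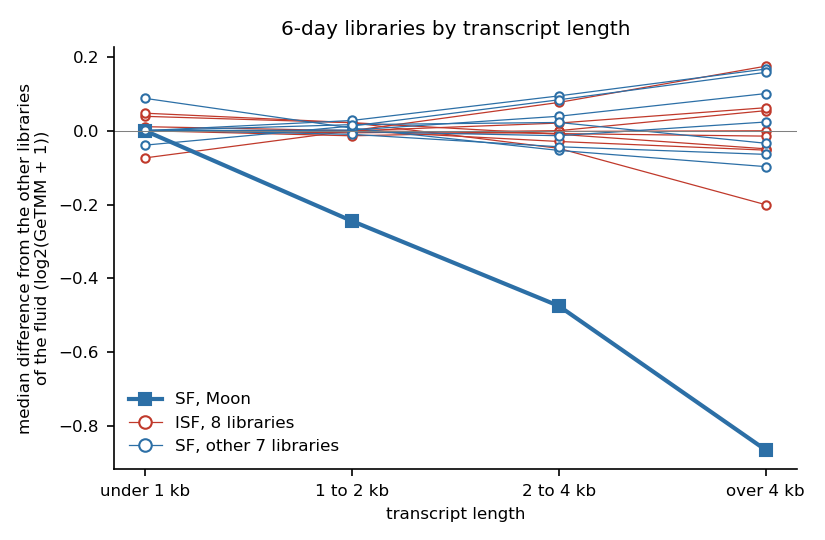
Difference of each 6-day library from the median of the other libraries of the same fluid (log2 scale, vertical axis) by class of transcript length (horizontal axis), shown as the median over the genes of the class. The Moon SF library (filled square) falls to -0.86 for transcripts over 4 kb, while the other 15 libraries (open circles) stay between -0.20 and 0.17.

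Both cultures expressed macrophage genes at high levels. CD68, a lysosomal protein of macrophages, had lowest, median and highest levels of 3206, 3536 and 4697 GeTMM in ISF and 2590.4, 3741 and 5299.6 GeTMM in SF, against a median of 82 GeTMM at 0 hours. SPP1, which encodes osteopontin, had levels of 4059, 44316 and 87676 GeTMM in ISF and 3436, 14971 and 84081 GeTMM in SF, against 10.3 GeTMM at 0 hours. The groups overlapped for both genes, and neither passed the test, with log2 fold changes of 0.04 ± 0.14 for CD68 (FDR = 0.858 and 0.515 with and without the Moon SF library) and 0.58 ± 0.59 for SPP1 (FDR = 0.497 and 0.358). Macrophage genes were thus present in both groups, beside RNA of lymphoid and granulocyte precursor genes that was higher in SF cultures. In such mixed cultures fewer cells of a type and less RNA per cell cannot be told apart.

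Of 14570 genes tested, 4405 were DEGs at 6 days (30.2%), of which 2427 were upregulated in ISF (16.7%) and 1978 downregulated (13.6%). Without the Moon SF library, 5274 genes were DEGs (36.2%), 2598 upregulated (17.8%) and 2676 downregulated (18.4%). Counts of members in the gene lists below are to be read beside these shares of all tested genes. The 2 fits shared 3707 DEGs, all in the same direction, which is 84.2% of the DEGs found with all libraries. The split depended on the scaling, as rescaling the libraries to the median sum without the Moon SF library gave 1588 upregulated and 3624 downregulated genes. Changes of at least 1 on the log2 scale were found for 594 upregulated genes (4.08%) and 492 downregulated genes (3.38%), or 500 (3.43%) and 528 (3.62%) without the Moon SF library. With the 16 libraries of 6 days alone, whose spread includes the Moon SF library, 1995 genes were DEGs, and 4304 were DEGs when both libraries of Moon were left out of that fit.

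The first principal component of the 15 libraries without Moon SF held 36.4% of the variance and separated the fluids, with ISF libraries at 10.8 to 49.4 and SF libraries at -51.8 to -5.02. When the Moon SF library was included, the first component (38.3%) placed that library at -175 and all others between -4.21 and 37.1. Averaged as a root mean square over tested genes, the 2 fluids of a horse differed by 0.601 (RimRun) to 0.832 (Dreamer) on the log2 scale in 7 horses and 1.55 in Moon.

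Among the genes with the highest fold changes were 2 chemokines. CCL2 (ENSECAG00000023949), the main chemoattractant of monocytes, had levels of 5264, 8317 and 13874 GeTMM in ISF and 342, 468 and 1596 GeTMM in SF. Every ISF library was above every SF library, with a log2 fold change of 4.01 ± 0.37 (FDR = 1.1e-12) and of 4.24 (FDR = 1.3e-13) without the Moon SF library. CCL8 (ENSECAG00000038853), a related monocyte chemoattractant, had levels of 188, 587 and 1244 GeTMM in ISF and 20.8, 28.3 and 63.1 GeTMM in SF, again without overlap, and a log2 fold change of 4.10 ± 0.48 (FDR = 7.8e-10) and of 4.20 (FDR = 1.2e-09) without the Moon SF library. Groups without overlap were found for 306 of the tested genes with higher levels in ISF (2.1%) and for 180 with lower levels (1.24%), or 457 (3.14%) and 404 (2.77%) without the Moon SF library.

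TNFAIP6 (ENSECAG00000012104), whose product TSG-6 binds hyaluronan and is secreted in inflamed joints, had levels of 167, 208 and 372 GeTMM in ISF and 4.95, 12.5 and 18.1 GeTMM in SF. The groups did not overlap, and the gene had a log2 fold change of 4.10 ± 0.38 (FDR = 1.4e-12) and of 4.06 (FDR = 6.7e-12) without the Moon SF library. CEMIP (ENSECAG00000018674), which is needed for the breakdown of hyaluronan, had levels of 2.60, 37.5 and 125 GeTMM in ISF and 0, 0.851 and 5.17 GeTMM in SF, with an overlap of the groups and a log2 fold change of 3.87 ± 0.58 (FDR = 4.0e-07) and of 3.71 (FDR = 1.7e-06) without the Moon SF library. NPTX1 (ENSECAG00000011663), a secreted pentraxin known from neurons, had the highest fold change among the named genes. Its levels were 33.8, 188 and 370.3 GeTMM in ISF and 1.18, 4.34 and 51.4 GeTMM in SF. The gene had a log2 fold change of 4.38 ± 0.56 (FDR = 9.0e-09) and of 4.14 (FDR = 6.3e-08) without the Moon SF library. Its groups overlapped because the highest SF value, in the horse Flash, exceeded the lowest ISF value.

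Other genes of the 12 with the highest fold changes, counted among genes with a symbol of their own, were receptors, a protease inhibitor, a transcription factor and a heparan sulfate enzyme. SUCNR1 (ENSECAG00000024345), the receptor of the metabolite succinate, had levels of 50.3, 118 and 217 GeTMM in ISF and 1.21, 8.51 and 19.3 GeTMM in SF and a log2 fold change of 3.78 ± 0.40 (FDR = 5.3e-11) and of 3.53 (FDR = 3.7e-10) without the Moon SF library. SERPINB10 (ENSECAG00000008493), an intracellular protease inhibitor of myeloid cells, was abundant, at 481, 1867 and 4545 GeTMM in ISF and 64.3, 141 and 248 GeTMM in SF, with a log2 fold change of 3.52 ± 0.46 (FDR = 1.9e-08) and of 3.37 (FDR = 1.1e-07) without the Moon SF library. Neither gene had overlapping groups. Further members were the endothelin receptor EDNRB (3.40 ± 0.81 and 2.92), the immune cell surface receptor SLAMF9 (3.36 ± 0.68 and 3.50), the transcription factor MSC (3.32 ± 0.41 and 3.49) and the heparan sulfate sulfotransferase HS3ST1 (3.28 ± 0.32 and 3.30). In these pairs and below, the first value is the log2 fold change of ISF over SF ± SE with all libraries and the last is that without the Moon SF library, and both had an FDR under 0.05 unless 2 FDR values follow. Where leaving out both 6-day libraries of another horse ended the call, the highest FDR is given with the horses by name. Losses under other alternatives, such as the fit of the 16 libraries of 6 days alone, are not marked by gene. Of the 164 calls among the genes named with values, 68 were lost in at least 1 alternative. EDNRB had overlapping groups, and SLAMF9, MSC and HS3ST1 did not. All 12 genes were higher in ISF in 8 of 8 horses, which the rule for choosing them required.

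S100A1 (ENSECAG00000022939), a calcium-binding protein best known from muscle, had levels of 0.696, 6.33 and 18.3 GeTMM in ISF and 68.6, 319.9 and 1174 GeTMM in SF, without overlap, and a log2 fold change of -5.44 ± 0.54 (FDR = 6.2e-12) and of -5.44 (FDR = 2.5e-11) without the Moon SF library. In BMNC before culture its median was 28.6 GeTMM, between the medians of the fluids. DEFB1 (ENSECAG00000034702), a constitutive antimicrobial beta-defensin, had levels of 1.22, 9.44 and 49.4 GeTMM in ISF and 55, 100.2 and 745 GeTMM in SF, also without overlap, with a log2 fold change of -3.98 ± 0.46 (FDR = 5.7e-10) and of -3.64 (FDR = 3.3e-09) without the Moon SF library. FAXDC2 (ENSECAG00000014962), a member of the fatty acid hydroxylase family, had levels of 1.25, 1.67 and 2.99 GeTMM in ISF and 10.9, 31.8 and 62.6 GeTMM in SF and a log2 fold change of -3.36 ± 0.27 (FDR = 9.4e-15) and of -3.43 (FDR = 1.7e-14) without the Moon SF library.

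Granule proteins of neutrophil precursors made up 4 of the 12 lowest fold changes. They were the serine protease ELANE (-3.98 ± 0.73 and -3.85), its relative AZU1 (-3.93 ± 0.74 and -3.70), the peroxidase MPO (-3.12 ± 0.66 and -3.11) and the cathelicidin ECATH-2 (-3.71 ± 1.23 and -3.10, FDR up to 0.0543 without Dreamer), whose reads are uncertain because the horse genome holds close copies of this gene. ELANE had levels of 0, 26.1 and 98.8 GeTMM in ISF and 14.9, 356 and 654 GeTMM in SF against a median of 1321 GeTMM at 0 hours, so both fluids were below uncultured BMNC. The groups overlapped for all 4 genes. PPBP, a platelet chemokine made by megakaryocytes, was likewise lower, at 0, 14.2 and 175 GeTMM in ISF and 12.6, 218 and 610.5 GeTMM in SF against 777 GeTMM at 0 hours, with a log2 fold change of -3.14 ± 0.84 (FDR = 0.00286) and of -2.99 (FDR = 0.00552) without the Moon SF library.

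The other downregulated genes of this set were the inositol phosphatase IMPA2 (-3.27 ± 0.32 and -3.16), the aspartoacylase ASPA (-3.08 ± 0.36 and -3.05), the melanosome protein MLANA (-2.95 ± 0.46 and -2.65) and the steroid dehydrogenase HSD17B14 (-2.93 ± 0.33 and -3.0). HSD17B14 had levels of 5.22, 10.2 and 20.7 GeTMM in ISF and 46.1, 102 and 155 GeTMM in SF and a median of 0.272 GeTMM at 0 hours, so its level in SF was far above that of uncultured cells. The groups did not overlap for IMPA2 and HSD17B14.

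**Figure D2:**
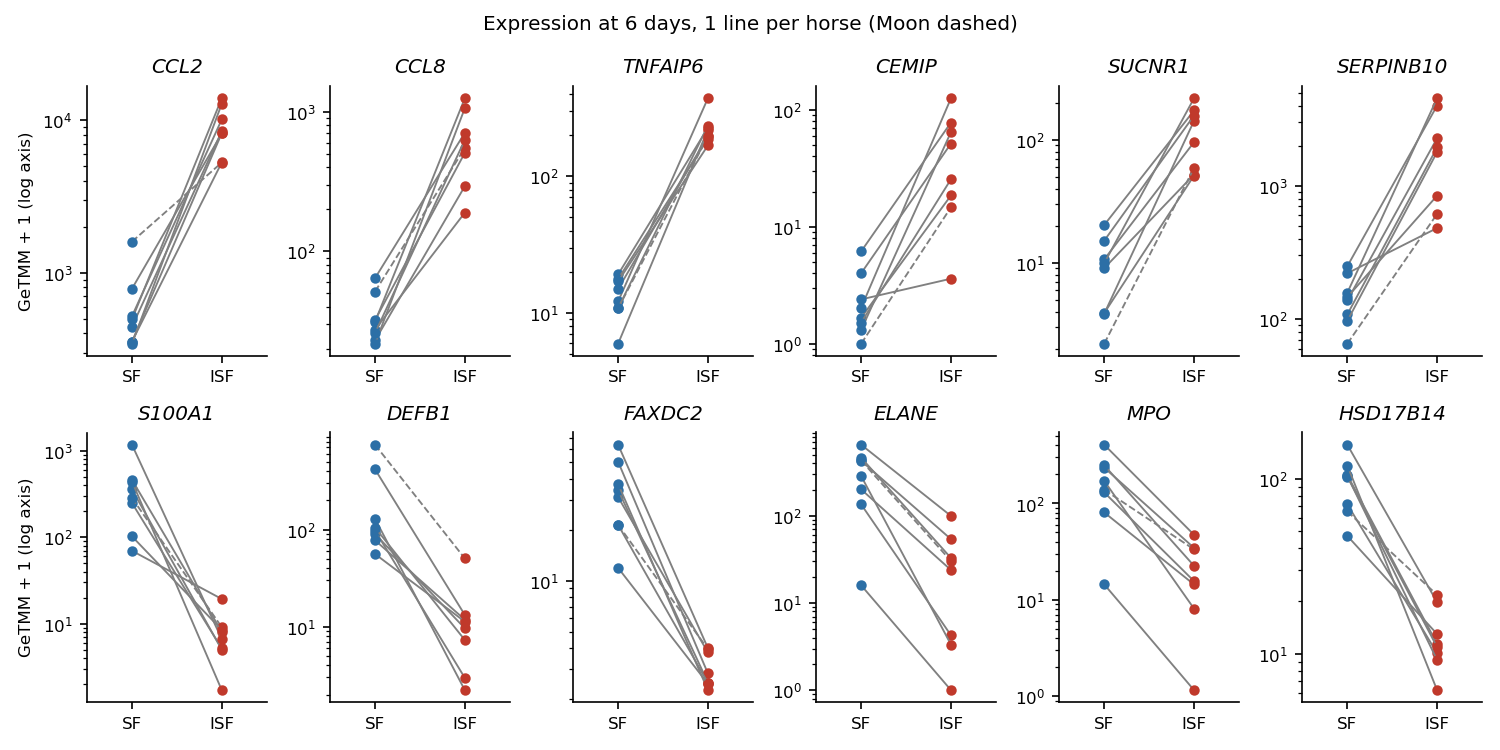
Expression of 12 named genes in the ISF and SF culture of each horse at 6 days, as GeTMM + 1 on a log axis. Each line joins the 2 libraries of a horse, and the line of Moon is dashed. All 8 lines rise from SF to ISF for CCL2, CCL8, TNFAIP6, CEMIP, SUCNR1 and SERPINB10 and fall for S100A1, DEFB1, FAXDC2, ELANE, MPO and HSD17B14.

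Among chemokines, 7 of 20 tested members were upregulated and 1 downregulated (7 and 1 without the Moon SF library), with a median log2 fold change of 0.43 (0.42), against a median of 0.00 over all genes tested. Beside CCL2 and CCL8, the upregulated members were the eosinophil attractant CCL11 (2.86 ± 0.46 and 3.0), the neutrophil attractants CXCL8 (2.42 ± 0.45 and 2.48) and CXCL1 (1.97 ± 0.32 and 2.03), and CCL3 (2.04 ± 0.43 and 2.29) and CCL14 (1.33 ± 0.42 and 1.48, FDR up to 0.0677 without Dreamer), which attract monocytes. CCL3 had levels of 199, 489 and 979 GeTMM in ISF and 54.9, 72.2 and 501 GeTMM in SF. The downregulated chemokine was CCL5 (-1.29 ± 0.51 and -1.18, FDR = 0.0479 and 0.0747, FDR up to 0.112 without Catnip, Dreamer, Flash, Lurie or Ollie), a product of T cells that passed the test with all libraries only, and CXCL12, which retains cells in the marrow, had a log2 fold change of -1.0 ± 0.43 with FDR = 0.0708 and 0.0353 and levels of at most 0.188 GeTMM in ISF and 10.6 GeTMM in SF. With horse as a replicate block CXCL12 passed with FDR = 0.0487.

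Of the chemokine receptors, 3 of 11 tested members were upregulated and 4 downregulated (3 and 4 without the Moon SF library), with a median log2 fold change of -0.37 (-0.47), against 16.7% and 13.6% of all tested genes. Among the upregulated receptors were CCR6 (2.27 ± 0.37 and 2.22) and CCR1 (1.46 ± 0.29 and 1.0), of which CCR1 binds CCL3. The downregulated receptors were CXCR4 (-1.77 ± 0.27 and -1.84), the receptor of CXCL12, CXCR3 (-1.43 ± 0.21 and -1.34), CX3CR1 (-0.87 ± 0.23 and -0.94) and CXCR6 (-0.66 ± 0.23 and -0.65, FDR up to 0.0799 without Catnip, Dreamer, Flash or Ollie). CXCR4 had levels of 30.0, 108 and 159.6 GeTMM in ISF and 193, 288 and 413 GeTMM in SF, without overlap.

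Of the inflammatory cytokines and the IL-1 family, 5 of 20 tested members were upregulated and 1 downregulated (3 and 3 without the Moon SF library), with a median log2 fold change of 0.28 (0.31). All tested genes had shares of 16.7% and 13.6% (17.8% and 18.4% without the Moon SF library), so the counts without that library lay near these shares. TNF, the cytokine tumor necrosis factor, had levels of 7.63, 12.1 and 19.3 GeTMM in ISF and 2.65, 4.30 and 4.91 GeTMM in SF, without overlap, and a log2 fold change of 1.36 ± 0.23 (FDR = 3.6e-06) and of 1.29 (FDR = 1.3e-05) without the Moon SF library. Its level in the Moon SF library was the lowest of the group. Among the inhibitors of these cytokines, the decoy receptor IL1R2 (1.60 ± 0.39 and 1.75) and the IL-18 binding protein IL18BP (1.85 ± 0.50 and 2.10) were higher in ISF. The list also held IL1RN, the gene of the IL-1 receptor antagonist, which was not among the members that passed with all libraries. NLRP3 (0.90 ± 0.30 and 0.64, FDR = 0.0168 and 0.0711, FDR up to 0.0602 without Dreamer) and IL1RAP (0.76 ± 0.24 and 0.43, FDR = 0.0113 and 0.0644) passed with all libraries only. The lymphotoxin gene LTB (-2.15 ± 0.38 and -1.93), expressed by lymphocytes, was lower. IL1B was low in both fluids, at 1.13, 2.36 and 3.05 GeTMM in ISF and 1.13, 2.84 and 6.08 GeTMM in SF, with a log2 fold change of -0.40 ± 0.31 (FDR = 0.350) and of -0.42 (FDR = 0.326) without the Moon SF library, and was lower in ISF in 7 of 8 horses.

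Receptors for microbial products and their adaptors were changed in part. Of the Toll-like receptors and adaptors, 6 of 18 tested members were upregulated and 2 downregulated (6 and 2 without the Moon SF library), with a median log2 fold change of 0.20 (0.03), against 16.7% and 13.6% of all tested genes. TLR8, a receptor for single-stranded RNA, had levels of 45.5, 93.1 and 155 GeTMM in ISF and 14.2, 25.7 and 37.4 GeTMM in SF, without overlap, with a log2 fold change of 1.77 ± 0.25 (FDR = 7.0e-08) and of 1.66 (FDR = 4.1e-07) without the Moon SF library, and the kinase IRAK2 (1.20 ± 0.16 and 1.09) was higher as well. The RNA receptor TLR7 (-0.96 ± 0.36 and -1.25, FDR up to 0.140 without Catnip, Dealings, Dreamer or Lurie) and the inhibitory kinase IRAK3 (-0.68 ± 0.27 and -0.87, FDR up to 0.119 without Catnip, Dealings, Dreamer, Flash, Ollie or RimRun) were lower. TLR4, the receptor of lipopolysaccharide, was listed at 0 in all 16 libraries.

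Of the NF-kappaB subunits and regulators, which control many inflammatory genes, 1 of 20 tested members were upregulated and 0 downregulated (3 and 2 without the Moon SF library), with a median log2 fold change of 0.17 (0.03). The member upregulated with all libraries was NFKBIZ (0.50 ± 0.19 and 0.43, FDR = 0.0384 and 0.0757, FDR up to 0.111 without Catnip, Dealings, Dreamer or Flash). Without the Moon SF library they were the inhibitors TNIP1 (0.35 ± 0.15 and 0.47, FDR = 0.0710 and 0.00653), NFKBIE (0.24 ± 0.15 and 0.40, FDR = 0.231 and 0.0159) and NFKBIB (0.08 ± 0.17 and 0.33, FDR = 0.779 and 0.0452), and the downregulated members were the kinases IKBKB (0.00 ± 0.16 and -0.27, FDR = 0.991 and 0.0211) and MAP3K14 (-0.31 ± 0.19 and -0.55, FDR = 0.233 and 0.00553). The subunits of the noncanonical pathway were NFKB2 (0.13 ± 0.15 and 0.23, FDR = 0.535 and 0.222) and RELB (0.17 ± 0.21 and 0.26, FDR = 0.600 and 0.370). With horse as a replicate block TNIP1 also passed with all libraries, at FDR = 0.0450.

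Of the genes of IL-10, IL-4 and IL-13 signaling, 5 of 17 tested members were upregulated and 1 downregulated (4 and 1 without the Moon SF library), with a median log2 fold change of 0.04 (0.03), against 16.7% and 13.6% of all tested genes. The mitochondrial arginase ARG2 (1.77 ± 0.29 and 2.01), the feedback inhibitor SOCS3 (1.62 ± 0.36 and 1.46), and the receptor chains IL4R (1.40 ± 0.18 and 1.42) and IL13RA1 (0.82 ± 0.24 and 0.48) were upregulated, as was STAT3 (0.61 ± 0.21 and 0.24, FDR = 0.0188 and 0.0812) with all libraries only. IL4R had levels of 315, 667 and 795 GeTMM in ISF and 203, 239 and 285 GeTMM in SF, without overlap. The transcription factor IRF4 (-1.07 ± 0.24 and -1.10) was downregulated. IL10 had levels of 2.99, 9.29 and 23.4 GeTMM in ISF and 6.40, 12.8 and 41 GeTMM in SF and a log2 fold change of -0.66 ± 0.36 (FDR = 0.166) and of -0.72 (FDR = 0.129) without the Moon SF library. Its FDR with horse as a replicate block was 0.0494. IL13 was listed at 0 in all 16 libraries.

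Of the interferon-stimulated genes, 0 of 31 tested members were upregulated and 1 downregulated (0 and 1 without the Moon SF library), with a median log2 fold change of 0.40 (0.35). The downregulated member was IRF8 (-0.56 ± 0.12 and -0.52), a transcription factor of monocytes and dendritic cells. The members with the highest fold changes, IFIT3 (1.16 ± 0.61 and 0.95, FDR = 0.152 and 0.244) and ISG15 (1.08 ± 0.82 and 1.47, FDR = 0.336 and 0.165), did not pass the test, and their levels varied widely, ISG15 with 12, 34.2 and 157 GeTMM in ISF and 5.01, 9.68 and 117 GeTMM in SF.

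Some members of the hyaluronan and metalloproteinase lists were upregulated. These lists were chosen with earlier results of these data known, and TNFAIP6 and CEMIP were already named above for their high fold changes. Of the hyaluronan genes, 4 of 8 tested members were upregulated and 0 downregulated (4 and 0 without the Moon SF library), with a median log2 fold change of 0.86 (0.69), and TNFAIP6 and CEMIP were joined by the hyaluronan receptors HMMR (1.30 ± 0.34 and 1.05) and CD44 (0.43 ± 0.15 and 0.57, FDR up to 0.0746 without Catnip, Dreamer, Flash, Lurie or RimRun). The log2 fold change of HMMR was 0.33, 0.78, 1.30 and 0.06 at 48 hours, 96 hours, 6 days and 10 days. Medians of the cell proliferation list at these times were 0.33, 0.72, 0.77 and -0.19. The part of cell proliferation in the HMMR difference was not tested. Of the metalloproteinases and their inhibitors, 4 of 10 tested members were upregulated and 1 downregulated (4 and 1 without the Moon SF library), with a median log2 fold change of 0.47 (0.46). The macrophage elastase MMP12 had levels of 60.1, 1016 and 4587 GeTMM in ISF and 12.2, 85.3 and 322 GeTMM in SF, with overlap and a log2 fold change of 3.16 ± 0.78 (FDR = 0.00124) and of 3.21 (FDR = 0.00147) without the Moon SF library. The membrane collagenase MMP14 (1.25 ± 0.30 and 0.90) and the aggrecan-cleaving ADAMTS1 (1.74 ± 0.45 and 1.59) were upregulated too.

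The inhibitors of these enzymes moved apart. TIMP1 had levels of 218, 840.2 and 1369.9 GeTMM in ISF and 58.7, 117 and 431 GeTMM in SF and a log2 fold change of 2.56 ± 0.37 (FDR = 1.7e-07) and of 2.84 (FDR = 8.0e-09) without the Moon SF library, and it was higher in ISF in 7 of 8 horses. TIMP2 had levels of 184, 264 and 416 GeTMM in ISF and 322, 509 and 1659 GeTMM in SF and a log2 fold change of -1.07 ± 0.18 (FDR = 3.8e-06) and of -0.85 (FDR = 9.0e-06) without the Moon SF library. The list of extracellular matrix genes also held genes of other kinds, among them the cytoskeletal genes ACTA2 and VCL and the pentraxin gene NPTX1. In it 4 of 18 tested members were upregulated and 1 downregulated (3 and 1 without the Moon SF library), with a median log2 fold change of -0.28 (-0.34), against 16.7% and 13.6% of all tested genes. Beside NPTX1 the upregulated members were the smooth muscle actin ACTA2 (2.93 ± 0.56 and 2.94), the intracellular adhesion protein VCL (1.0 ± 0.30 and 0.67) and the matrix protein fibronectin FN1 (1.59 ± 0.56 and 1.37, FDR = 0.0243 and 0.0540, FDR up to 0.0701 without Dreamer, Flash or Ollie), the last with all libraries only, and the downregulated member was the basement membrane collagen COL4A1 (-0.98 ± 0.35 and -1.15, FDR up to 0.180 without Catnip, Dealings, Flash or Lurie).

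Glycolysis genes were upregulated in ISF. In this list 17 of 21 tested members were upregulated and 0 downregulated (16 and 0 without the Moon SF library), with a median log2 fold change of 1.19 (1.28). SLC2A1, which encodes the glucose transporter GLUT1, had levels of 4.51, 12.9 and 61.8 GeTMM in ISF and 1.38, 1.90 and 4.87 GeTMM in SF and a log2 fold change of 2.31 ± 0.38 (FDR = 3.5e-06) and of 2.26 (FDR = 1.0e-05) without the Moon SF library. PGAM1, which encodes a phosphoglycerate mutase, had levels of 906, 1152 and 2205 GeTMM in ISF and 141, 472 and 746 GeTMM in SF, without overlap, and a log2 fold change of 1.66 ± 0.20 (FDR = 1.9e-09) and of 1.44 (FDR = 2.9e-09) without the Moon SF library. The mean log2 level of the list was 7.30 to 8.79 in ISF and 6.38 to 7.06 in SF, so the libraries did not overlap, and uncultured BMNC lay at 7.13 to 7.38.

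Of the genes known to respond to hypoxia, 8 of 15 tested members were upregulated and 0 downregulated (7 and 1 without the Moon SF library), with a median log2 fold change of 0.91 (0.55). The count of upregulated members was 5 when both 6-day libraries of Flash were left out. The upregulated members with the highest values were ANKRD37 (2.64 ± 0.48 and 2.86) and the prolyl hydroxylase of collagen P4HA2 (1.87 ± 0.22 and 1.98). Of the genes of the mitochondrial respiratory chain, 5 of 28 tested members were upregulated and 0 downregulated (12 and 0 without the Moon SF library), with a median log2 fold change of 0.05 (0.27), against 16.7% (17.8%) of all tested genes upregulated. The count of upregulated members was 3 when both 6-day libraries of Catnip were left out. The highest of these were ATP5F1B (0.50 ± 0.15 and 0.64) and UQCRC2 (0.48 ± 0.13 and 0.59), and NDUFA2 was listed at 0 in all 16 libraries.

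Some members of the list of PPAR and liver X receptor (LXR) genes and their targets were upregulated in ISF. In this list 7 of 22 tested members were upregulated and 1 downregulated (8 and 1 without the Moon SF library), with a median log2 fold change of 0.28 (0.20), against 16.7% and 13.6% of all tested genes. The mean log2 level of the list was higher in ISF in 8 of 8 horses, although the ranges of 5.54 to 5.98 in ISF and 4.92 to 5.71 in SF overlapped (5.09 to 5.71 in SF without the Moon SF library). LPL, which encodes the lipoprotein lipase that releases fatty acids from lipoproteins, had levels of 121, 542 and 1373 GeTMM in ISF and 24.7, 110.3 and 218 GeTMM in SF, with a log2 fold change of 2.37 ± 0.48 (FDR = 1.0e-04) and of 2.11 (FDR = 4.7e-04) without the Moon SF library. PPARGC1A, a coactivator of PPAR-gamma, had levels of 1.43, 5.59 and 11.9 GeTMM in ISF and 0, 1.19 and 4.21 GeTMM in SF and a log2 fold change of 1.42 ± 0.26 (FDR = 2.5e-05) and of 1.26 (FDR = 1.3e-04) without the Moon SF library, and was higher in ISF in 8 of 8 horses. PPARG itself had levels of 26, 37.4 and 45.7 GeTMM in ISF and 26.2, 28 and 41.3 GeTMM in SF and a log2 fold change of 0.27 ± 0.15 (FDR = 0.170) and of 0.24 (FDR = 0.217) without the Moon SF library. The fatty acid carrier FABP4 (1.56 ± 0.79 and 2.09, FDR = 0.130 and 0.0297) passed without the Moon SF library, and with all libraries when horse was a replicate block (FDR = 0.00991), and the receptor RXRB (-0.57 ± 0.10 and -0.60) was the downregulated member.

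Of the fatty acid synthesis genes, 3 of 12 tested members were upregulated and 0 downregulated (3 and 0 without the Moon SF library), with a median log2 fold change of 0.26 (0.14). They were the malic enzyme ME1 (1.96 ± 0.18 and 1.90), the elongase ELOVL5 (1.26 ± 0.28 and 0.83) and the citrate lyase ACLY (0.57 ± 0.15 and 0.33). ME1 had levels of 76.3, 123 and 153 GeTMM in ISF and 21.7, 27 and 60.6 GeTMM in SF, without overlap. Of the fatty acid oxidation genes, 2 of 14 tested members were upregulated and 0 downregulated (4 and 0 without the Moon SF library), with a median log2 fold change of 0.20 (0.14), against 16.7% and 13.6% of all tested genes. The carnitine carrier SLC25A20 (0.63 ± 0.14 and 0.64) and the trifunctional protein subunit HADHA (0.35 ± 0.12 and 0.45, FDR up to 0.0531 without Catnip) were called in both fits.

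Among cholesterol synthesis and uptake genes, 1 of 26 tested members were upregulated and 0 downregulated (1 and 1 without the Moon SF library), with a median log2 fold change of -0.06 (-0.03). With all libraries the upregulated member was the sterol carrier STARD4 (0.68 ± 0.23 and 0.35, FDR = 0.0173 and 0.101, FDR up to 0.0501 without Ollie), and without the Moon SF library the sterol sensor partner SCAP (0.25 ± 0.11 and 0.35, FDR = 0.0715 and 0.00557) was upregulated and the cyclase LSS (-0.23 ± 0.38 and -0.78, FDR = 0.695 and 0.0322) downregulated. With horse as a replicate block 3 members were upregulated and 1 downregulated, with FDR = 0.0413 for SCAP. Of the mevalonate pathway, neither MVK (-0.10 ± 0.20 and -0.06, FDR = 0.754 and 0.856) nor HMGCS1 (-0.16 ± 0.32 and -0.50, FDR = 0.761 and 0.178) passed. MVK had levels of 13.2, 20.0 and 29.2 GeTMM in ISF and 14.1, 22.8 and 34.9 GeTMM in SF, with an overlap of the groups.

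Genes of cell proliferation were higher in ISF. In this list 18 of 28 tested members were upregulated and 0 downregulated (21 and 0 without the Moon SF library), with a median log2 fold change of 0.77 (0.78). The count of upregulated members was 11 when both 6-day libraries of Dealings were left out. CDC6, which licenses DNA replication, had levels of 10.2, 14.8 and 25.8 GeTMM in ISF and 1.93, 4.46 and 8.35 GeTMM in SF, without overlap, with a log2 fold change of 1.60 ± 0.24 (FDR = 3.1e-07) and of 1.58 (FDR = 8.0e-07) without the Moon SF library, and the transcription factor E2F1 (1.57 ± 0.27 and 1.48) was higher as well. The mean log2 level of the list was higher in ISF in 8 of 8 horses, although the ranges of 4.01 to 5.12 in ISF and 2.97 to 4.76 in SF overlapped. Of the p53 targets and cell-cycle inhibitors, 6 of 18 tested members were upregulated and 1 downregulated (6 and 4 without the Moon SF library), with a median log2 fold change of 0.23 (0.11), against 16.7% and 13.6% of all tested genes. The kinase inhibitors CDKN2B (1.31 ± 0.23 and 1.11) and CDKN2C (0.93 ± 0.26 and 1.05, FDR up to 0.0546 without Dealings) were upregulated and CCNG1 (-1.11 ± 0.17 and -1.14), a p53 target, was downregulated.

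**Figure D3:**
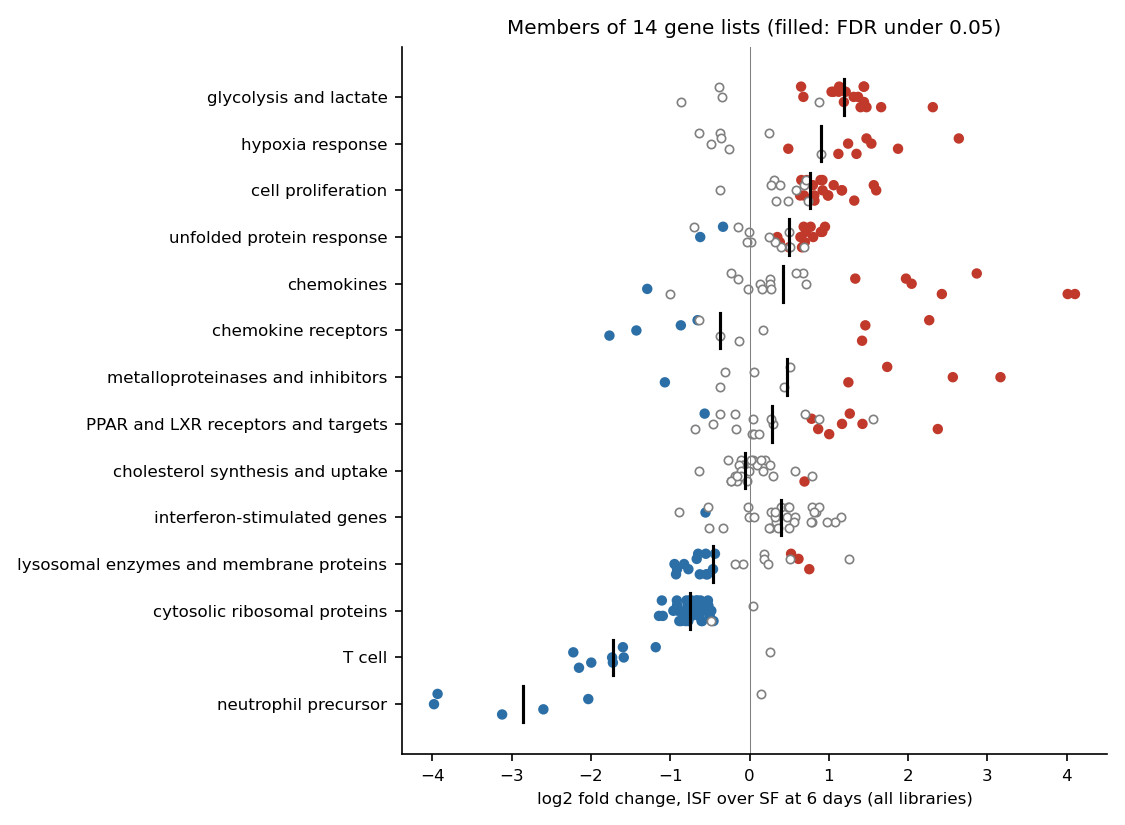
Log2 fold change of ISF over SF at 6 days (horizontal axis) for the members of 14 gene lists, 1 point per gene. Filled points passed FDR under 0.05 with all libraries, open points did not, and the vertical tick in each row is the median of the list. Nearly all glycolysis members lie to the right of 0, and all T cell members but 1 lie to the left.

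Of the genes of the unfolded protein response, 13 of 26 tested members were upregulated and 2 downregulated (13 and 2 without the Moon SF library), with a median log2 fold change of 0.50 (0.43). HSPA5, the main chaperone of the endoplasmic reticulum, had levels of 577, 739 and 1185 GeTMM in ISF and 324, 388 and 472 GeTMM in SF, without overlap, and a log2 fold change of 0.95 ± 0.18 (FDR = 3.5e-05) and of 0.96 (FDR = 4.3e-05) without the Moon SF library. The stress sensor kinase EIF2AK3 (0.92 ± 0.18 and 0.64) was upregulated, whereas the sensor ERN1 (-0.62 ± 0.22 and -0.89, FDR up to 0.126 without Catnip, Dealings, Dreamer or Ollie) and its target XBP1 (-0.33 ± 0.13 and -0.34, FDR up to 0.118 without Dealings, Flash, Lurie or Ollie) were downregulated. Of the proteasome subunits, 6 of 28 tested members were upregulated and 0 downregulated (20 and 0 without the Moon SF library), with a median log2 fold change of 0.17 (0.38), so that this count depended on the Moon SF library. The highest values were those of the regulatory subunits PSMD12 (0.60 ± 0.11 and 0.56) and PSMD11 (0.53 ± 0.10 and 0.49).

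Cytosolic ribosomal protein genes were lower in ISF, where 0 of 43 tested members were upregulated and 41 downregulated (0 and 36 without the Moon SF library), with a median log2 fold change of -0.76 (-0.47). RPS12 had levels of 655, 813 and 1586 GeTMM in ISF and 1072, 1697 and 9149 GeTMM in SF and a log2 fold change of -1.14 ± 0.22 (FDR = 3.8e-05) and of -0.83 (FDR = 6.0e-05) without the Moon SF library, and its highest SF value was that of the Moon SF library. With the 16 libraries of 6 days alone 3 members passed, and 16 passed when both libraries of Moon were left out of that fit. Ribosomal protein genes have many near-identical processed copies, so their reads are uncertain. Of the genes of translation control, 3 of 17 tested members were upregulated and 1 downregulated (5 and 1 without the Moon SF library), with a median log2 fold change of 0.12 (0.05), against 16.7% and 13.6% of all tested genes. EIF4E, the cap-binding translation factor, had levels of 127, 199.8 and 338 GeTMM in ISF and 25.8, 101 and 138 GeTMM in SF and a log2 fold change of 1.23 ± 0.18 (FDR = 4.3e-07) and of 0.99 (FDR = 4.9e-07) without the Moon SF library. The mTOR partner RPTOR (0.75 ± 0.15 and 0.65) and the scaffold EIF4G1 (0.50 ± 0.11 and 0.48) were upregulated, and the elongation factor EEF1A1 (-0.49 ± 0.12 and -0.44), which also has processed copies, was downregulated.

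Lysosomal genes were mostly lower. Of the lysosomal enzymes and membrane proteins, 3 of 23 tested members were upregulated and 13 downregulated (4 and 11 without the Moon SF library), with a median log2 fold change of -0.46 (-0.38). The upregulated members numbered 5 with horse as a replicate block. TFEB, the transcription factor of lysosomal genes, had levels of 46.6, 64.3 and 91 GeTMM in ISF and 65.8, 134 and 190.0 GeTMM in SF and a log2 fold change of -0.95 ± 0.18 (FDR = 4.1e-05) and of -0.87 (FDR = 1.6e-04) without the Moon SF library, and the membrane protein SCARB2 (-0.93 ± 0.17 and -0.92) was lower too. The saposin precursor PSAP (0.75 ± 0.16 and 0.92), the sialidase NEU1 (0.52 ± 0.14 and 0.57) and the transcription factor TFE3 (0.62 ± 0.16 and 0.36) were higher. Of the subunits of the proton pump V-ATPase, 5 of 15 tested members were upregulated and 0 downregulated (7 and 0 without the Moon SF library), with a median log2 fold change of 0.23 (0.26), with the highest value for ATP6V1B2 (0.87 ± 0.14 and 0.84). The count of upregulated members was 3 when both 6-day libraries of Lurie were left out.

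In the list of cathepsins and cystatins 2 of 12 tested members were upregulated and 2 downregulated (3 and 2 without the Moon SF library), with a median log2 fold change of 0.09 (0.02), shares close to the 16.7% and 13.6% of all tested genes. The proteases CTSL (1.46 ± 0.30 and 1.58) and CTSZ (0.50 ± 0.18 and 0.71, FDR up to 0.104 without Catnip, Dreamer, Flash, Lurie, Ollie or RimRun) were upregulated, and CTSS (-0.49 ± 0.16 and -0.56, FDR up to 0.0653 without Dealings or Flash), which cleaves the invariant chain, and the inhibitor cystatin C, CST3 (-1.12 ± 0.26 and -0.98), were downregulated. Of the osteoclast genes, 4 of 7 tested members were upregulated and 1 downregulated (3 and 1 without the Moon SF library), with a median log2 fold change of 0.85 (0.81). The acid phosphatase ACP5, a defining enzyme of osteoclasts, had levels of 82.8, 167 and 299 GeTMM in ISF and 664, 933 and 1583 GeTMM in SF, without overlap, and a log2 fold change of -2.64 ± 0.32 (FDR = 2.3e-09) and of -2.55 (FDR = 1.4e-08) without the Moon SF library. The fusion gene OCSTAMP (2.25 ± 0.34 and 2.28), the gelatinase MMP9 (1.57 ± 0.40 and 1.67) and the RANK receptor gene TNFRSF11A (1.26 ± 0.31 and 1.02) were upregulated, and the fusion gene DCSTAMP (0.85 ± 0.29 and 0.72, FDR = 0.0210 and 0.0502, FDR up to 0.0831 without Lurie or Ollie) with all libraries only.

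SLC11A1, which encodes the phagosomal metal transporter NRAMP1, had levels of 340.5, 431 and 749 GeTMM in ISF and 24.7, 74 and 308 GeTMM in SF, without overlap, and a log2 fold change of 2.45 ± 0.31 (FDR = 9.5e-09) and of 2.72 (FDR = 1.7e-10) without the Moon SF library. SLC40A1, the iron exporter ferroportin, had levels of 1.47, 6.97 and 23.8 GeTMM in ISF and 0.958, 72.1 and 169 GeTMM in SF and a log2 fold change of -2.40 ± 0.48 (FDR = 7.3e-05) and of -3.05 (FDR = 3.8e-09) without the Moon SF library. Its lowest SF value was that of the Moon SF library, and without it the groups did not overlap. Of the iron and heme genes as a whole, 5 of 16 tested members were upregulated and 3 downregulated (5 and 2 without the Moon SF library), with a median log2 fold change of -0.04 (0.06), the importer SLC11A2 (1.52 ± 0.19 and 1.58) among them, and HPX was listed at 0 in all 16 libraries.

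Of the NRF2 and antioxidant genes, 7 of 26 tested members were upregulated and 3 downregulated (8 and 4 without the Moon SF library), with a median log2 fold change of -0.06 (0.04), against 16.7% and 13.6% of all tested genes. The peroxiredoxin PRDX6 (1.72 ± 0.23 and 1.88) and the glutathione synthesis gene GCLM (1.53 ± 0.27 and 1.47) were upregulated, and the glutathione transferase MGST1 (-1.80 ± 0.49 and -1.64) and the aldehyde dehydrogenase ALDH2 (-1.0 ± 0.13 and -0.97) were downregulated. The transcription factor gene itself was NFE2L2 (-0.28 ± 0.14 and -0.45, FDR = 0.137 and 0.00373). Of the phagocyte oxidase genes, 0 of 6 tested members were upregulated and 0 downregulated (1 and 0 without the Moon SF library), with a median log2 fold change of -0.05 (-0.05). DUOX2 and SOD3 were listed at 0 in all 16 libraries.

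Of the complement genes, 3 of 14 tested members were upregulated and 1 downregulated (3 and 2 without the Moon SF library), with a median log2 fold change of -0.26 (-0.36), against 16.7% and 13.6% of all tested genes. ITGAX, the alpha chain of complement receptor CR4, had levels of 227, 509 and 692 GeTMM in ISF and 55.1, 107 and 131 GeTMM in SF, without overlap, and a log2 fold change of 2.20 ± 0.23 (FDR = 2.4e-11) and of 2.09 (FDR = 1.6e-10) without the Moon SF library. The anaphylatoxin receptors C3AR1 (2.02 ± 0.34 and 1.52) and C5AR1 (1.14 ± 0.26 and 0.76) were higher, and CR2 (-1.37 ± 0.47 and -1.83, FDR up to 0.0922 without Catnip, Dreamer or Flash), a receptor of B cells, was lower. C6 was listed at 0 in all 16 libraries.

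Of the scavenger and clearance receptors, 3 of 16 tested members were upregulated and 1 downregulated (2 and 4 without the Moon SF library), with a median log2 fold change of 0.04 (-0.16), against 16.7% and 13.6% of all tested genes. The integrin chain ITGB3 (1.79 ± 0.37 and 1.42) and the scavenger receptor SCARF1 (1.18 ± 0.16 and 1.10) were upregulated in both fits and LRP1 (0.60 ± 0.23 and 0.48, FDR = 0.0372 and 0.0951, FDR up to 0.0886 without Dealings, Dreamer, Flash, Lurie, Ollie or RimRun) with all libraries only, and the bridging protein PROS1 (-0.85 ± 0.27 and -0.83, FDR up to 0.0774 without Flash) was downregulated. TREM2, a lipid-sensing receptor of macrophages, had levels of 476, 799 and 1229 GeTMM in ISF and 386, 519 and 2553 GeTMM in SF and a log2 fold change of 0.20 ± 0.26 (FDR = 0.611) and of 0.47 (FDR = 0.108) without the Moon SF library, its highest SF value being that of the Moon SF library. It passed with FDR = 0.0148 in the fit of 6 days alone with horse as a replicate block and without both libraries of Moon.

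Of the antigen presentation and costimulation genes, 3 of 19 tested members were upregulated and 4 downregulated (3 and 5 without the Moon SF library), with a median log2 fold change of -0.35 (-0.40), against 16.7% and 13.6% of all tested genes. The costimulatory molecules CD80 (1.02 ± 0.24 and 0.85), CD40 (0.69 ± 0.16 and 0.88) and CD86 (0.58 ± 0.17 and 0.59, FDR up to 0.0727 without Dreamer) were upregulated. HLA-DMA (-1.34 ± 0.29 and -1.42), which loads peptides on class II molecules, and the class II transactivator CIITA (-0.98 ± 0.23 and -1.05) were downregulated.

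Of the eicosanoid enzymes and receptors, 3 of 23 tested members were upregulated and 5 downregulated (4 and 5 without the Moon SF library), with a median log2 fold change of -0.13 (-0.15), against 16.7% and 13.6% of all tested genes. HPGDS, a prostaglandin D synthase, had levels of 2.25, 4.06 and 7.31 GeTMM in ISF and 16.1, 30.1 and 45 GeTMM in SF, without overlap, and a log2 fold change of -2.59 ± 0.25 (FDR = 3.9e-12) and of -2.50 (FDR = 2.4e-11) without the Moon SF library. TBXAS1, the thromboxane synthase, had levels of 2.39, 6.07 and 19.8 GeTMM in ISF and 26.7, 45.7 and 69.4 GeTMM in SF, without overlap, and a log2 fold change of -2.51 ± 0.36 (FDR = 2.1e-07) and of -2.59 (FDR = 2.3e-07) without the Moon SF library. The prostacyclin receptor PTGIR (1.78 ± 0.31 and 1.56) and the leukotriene B4 receptor LTB4R (1.34 ± 0.37 and 1.67) were upregulated.

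Of the S100 family and defensins, 1 of 13 tested members were upregulated and 5 downregulated (1 and 5 without the Moon SF library), with a median log2 fold change of -0.79 (-0.51), and the upregulated member was S100A11 (0.71 ± 0.18 and 0.86). S100B and DEFB4B were listed at 0 in all 16 libraries. Growth factors included IGF1, the insulin-like growth factor, with levels of 0.497, 3.31 and 17 GeTMM in ISF and 2.99, 31.2 and 208 GeTMM in SF and a log2 fold change of -2.47 ± 0.62 (FDR = 0.00152) and of -2.87 (FDR = 2.0e-04) without the Moon SF library, which was lower in ISF in 7 of 8 horses. TGFB3, a transforming growth factor, had levels of 9.38, 67.9 and 137 GeTMM in ISF and 3.94, 6.10 and 9.75 GeTMM in SF and a log2 fold change of 2.79 ± 0.46 (FDR = 2.8e-06) and of 2.76 (FDR = 6.9e-06) without the Moon SF library, and the matrix protein TGFBI (1.59 ± 0.33 and 1.67), which this factor induces, and the EGF receptor ligand HBEGF (1.55 ± 0.25 and 1.55) were higher. Of the list of growth factors and their binding proteins, 4 of 28 tested members were upregulated and 4 downregulated (4 and 4 without the Moon SF library), with a median log2 fold change of -0.10 (-0.05), shares close to the 16.7% and 13.6% of all tested genes. A replicate block of horse gave 7 upregulated members. The receptors IGF1R (-0.92 ± 0.18 and -1.02) and IGF2R (-0.94 ± 0.30 and -1.18, FDR up to 0.0948 without Catnip, Dealings or Dreamer) were lower. CSF1, the macrophage growth factor, had levels of 4.44, 66.2 and 109 GeTMM in ISF and 3.96, 15.4 and 102 GeTMM in SF and a log2 fold change of 0.92 ± 0.56 (FDR = 0.222) and of 0.65 (FDR = 0.396) without the Moon SF library, and CSF2 was listed at 0 in all 16 libraries.

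Of the macrophage transcription factors, 11 of 29 tested members were upregulated and 4 downregulated (13 and 5 without the Moon SF library), with a median log2 fold change of 0.31 (0.37). BHLHE40 and BHLHE41, a pair of related repressors, moved apart, with BHLHE40 (1.88 ± 0.28 and 1.65) and BHLHE41 (-1.94 ± 0.40 and -2.34). BATF had levels of 3.79, 8.16 and 24.2 GeTMM in ISF and 27.1, 37 and 187 GeTMM in SF, without overlap, and a log2 fold change of -2.29 ± 0.29 (FDR = 6.4e-09) and of -1.99 (FDR = 1.8e-08) without the Moon SF library. The AP-1 member FOSL1 (1.71 ± 0.29 and 1.83) was higher. Of the glucocorticoid-responsive genes, 4 of 12 tested members were upregulated and 2 downregulated (4 and 2 without the Moon SF library), with a median log2 fold change of 0.22 (0.23). HSD11B1, which activates cortisone to cortisol, had levels of 131, 251 and 377 GeTMM in ISF and 9.36, 25.7 and 144 GeTMM in SF and a log2 fold change of 2.97 ± 0.53 (FDR = 1.4e-05) and of 3.29 (FDR = 1.9e-06) without the Moon SF library, KLF9 (1.43 ± 0.26 and 1.08) was higher, and TSC22D3 (-0.84 ± 0.31 and -0.78, FDR = 0.0357 and 0.0554, FDR up to 0.0931 without Catnip, Dealings or Flash) and ZBTB16 (-0.47 ± 0.12 and -0.54) were lower.

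Markers of cell types other than macrophages were lower in ISF for lymphoid, granulocyte and megakaryocyte genes. Of the T cell markers, 0 of 9 tested members were upregulated and 8 downregulated (0 and 8 without the Moon SF library), with a median log2 fold change of -1.72 (-1.74). CD3G, a chain of the T cell receptor complex, had levels of 1.99, 8.12 and 11.3 GeTMM in ISF and 8.38, 42.1 and 61.8 GeTMM in SF against 55.9 GeTMM at 0 hours, and a log2 fold change of -2.15 ± 0.39 (FDR = 1.8e-05) and of -2.02 (FDR = 6.5e-05) without the Moon SF library. The coreceptor CD8A (-2.22 ± 0.49 and -2.84) was lower as well, with a value of 0 GeTMM in the Moon SF library. The mean log2 level of the T cell markers was 1.59 to 3.03 in ISF and 2.59 to 5.16 in SF, lower in ISF in 8 of 8 horses, against 4.39 to 5.47 at 0 hours.

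Of the B and plasma cell markers, 0 of 7 tested members were upregulated and 6 downregulated (0 and 7 without the Moon SF library), with a median log2 fold change of -1.55 (-1.58), with the B cell receptor chain CD79A (-2.07 ± 0.43 and -1.89) and the CD20 gene MS4A1 (-2.0 ± 0.42 and -1.96) lowest. The count of downregulated members was 3 when both 6-day libraries of Catnip or Dreamer were left out. Their mean was 1.16 to 2.97 in ISF and 2.44 to 4.87 in SF. Of the cytotoxic and natural killer cell markers, 0 of 7 tested members were upregulated and 4 downregulated (0 and 3 without the Moon SF library), with a median log2 fold change of -0.73 (-0.74), with the receptors KLRK1 (-1.49 ± 0.36 and -1.63) and KLRD1 (-0.99 ± 0.27 and -1.02) lowest and means of 0.820 to 1.49 in ISF and 0.858 to 2.37 in SF. The count of downregulated members was 2 when both 6-day libraries of Catnip, Dreamer or Ollie were left out. Of the neutrophil precursor markers, 0 of 6 tested members were upregulated and 5 downregulated (0 and 3 without the Moon SF library), with a median log2 fold change of -2.86 (-2.65). The count of downregulated members was 3 when both 6-day libraries of Dreamer or Ollie were left out. Of the megakaryocyte markers, 0 of 4 tested members were upregulated and 3 downregulated (0 and 3 without the Moon SF library), with a median log2 fold change of -1.08 (-1.02), with the platelet glycoprotein GP9 (-1.66 ± 0.48 and -1.55) next to PPBP and means of 0.576 to 3.12 in ISF and 1.73 to 3.97 in SF. The mean of the neutrophil precursor markers ranged from 0.499 to 7.06 in ISF and from 3.58 to 8.90 in SF, against 9.65 to 10.6 at 0 hours. The part of these cells in the differences of CCL5, LTB, CR2, CXCR3, CXCR4 and the ribosomal protein genes was not tested.

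Of the macrophage markers, 1 of 10 tested members were upregulated and 1 downregulated (1 and 1 without the Moon SF library), with a median log2 fold change of 0.15 (0.30). The scavenger receptor MSR1 had levels of 548, 1254 and 1725 GeTMM in ISF and 145, 212 and 501 GeTMM in SF, without overlap, and a log2 fold change of 2.27 ± 0.31 (FDR = 3.8e-08) and of 2.44 (FDR = 8.3e-09) without the Moon SF library. GPNMB, a glycoprotein of lipid-laden macrophages, had levels of 3243, 6156 and 7702 GeTMM in ISF and 4735, 13373 and 26196 GeTMM in SF and a log2 fold change of -1.30 ± 0.29 (FDR = 3.8e-04) and of -1.51 (FDR = 2.5e-05) without the Moon SF library. Of the monocyte markers, 1 of 4 tested members were upregulated and 0 downregulated (1 and 0 without the Moon SF library), with a median log2 fold change of 0.22 (-0.17), the proteoglycan VCAN (2.41 ± 0.39 and 2.16) being the upregulated member. Of the dendritic cell markers, 1 of 6 tested members were upregulated and 1 downregulated (1 and 1 without the Moon SF library), with a median log2 fold change of -0.07 (-0.12), namely BATF3 (1.22 ± 0.30 and 1.08) and FLT3 (-1.45 ± 0.24 and -1.60). Erythroid markers (6 tested) had a median log2 fold change of -0.07 (-0.03 without the Moon SF library) and means of 0.116 to 0.342 in ISF and 0.183 to 0.827 in SF (0.183 to 0.371 without the Moon SF library), and markers of mast cells, basophils and eosinophils (4 tested) a median of -0.09 (-0.15). Of the fibroblast or stromal markers, 0 of 8 tested members were upregulated and 1 downregulated (0 and 1 without the Moon SF library), with a median log2 fold change of -0.80 (-1.05), the downregulated member being the proteoglycan PRELP (-3.46 ± 0.55 and -3.61), with means of 0.0155 to 2.61 in ISF and 0.530 to 3.94 in SF (0.814 to 3.94 without the Moon SF library). Of the endothelial markers, 0 of 3 tested members were upregulated and 2 downregulated (0 and 2 without the Moon SF library), with a median log2 fold change of -0.88 (-1.02), namely EMCN (-1.91 ± 0.35 and -2.13) and TEK (-0.88 ± 0.21 and -1.02), with means of 0.0806 to 0.961 in ISF and 0.508 to 2.32 in SF. Without the Moon SF library the endothelial means in SF were 1.02 to 2.32, and the groups did not overlap. Their part in the differences of TIMP2, COL4A1, CXCL12 and IGF1 was not tested.

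**Figure D4:**
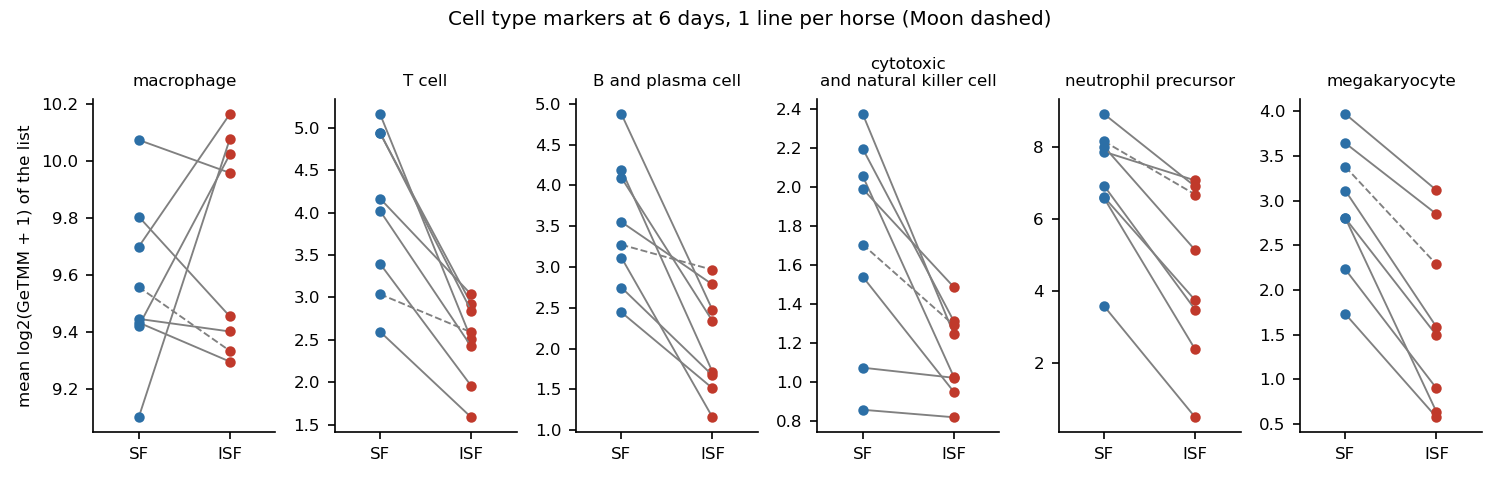
Mean log2(GeTMM + 1) of 6 lists of marker genes in each 6-day library (vertical axis), for the SF and ISF culture of each horse joined by a line, with the line of Moon dashed and an axis of its own for each list. The T cell mean runs from 1.59 to 3.03 in ISF and from 2.59 to 5.16 in SF, whereas the macrophage mean overlaps between fluids.

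Whether the difference between fluids at 6 days was the same as at other times was tested gene by gene with an interaction term. Against 48 hours, 784 genes differed (5.38%), in 515 of which the difference of ISF from SF lay higher at 6 days and in 269 lower. Without the Moon SF library 936 genes differed (6.42%), 656 of them shared with the first count. Of the 784 genes, 716 were DEGs at 6 days. Against 96 hours limma found 0 genes with and without the Moon SF library, with 881 (6.05%) and 747 (5.13%) genes at an unadjusted p under 0.05. The model of recovered reads (voom) found 0 as well. Against 10 days 33 genes differed (0.226%), or 99 (0.679%) without the Moon SF library. With horse as a replicate block the counts were 1441 against 48 hours and 270 against 10 days. The count against 10 days was also unsteady for other horses, as leaving out both 6-day libraries of a horse gave 52 (Catnip), 10 (Dealings), 12 (Flash), 126 (Moon) or 77 (RimRun) genes with all other libraries in the fit.

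Among the 24 genes with the highest and lowest fold changes, 16 differed from 48 hours with all libraries and 17 without the Moon SF library. The 24 genes were chosen by their fold change at 6 days, which is also part of each interaction term. Their count is therefore raised by that choice and is not comparable with the 5.38% of all tested genes. DEFB1 had a log2 fold change of 0.21 at 48 hours and -1.86 at 96 hours before the -3.98 at 6 days (interaction FDR = 4.9e-05 against 48 hours, 8.0e-05 without the Moon SF library). SERPINB10 had values of -0.55, 1.10 and 3.52 at 48 hours, 96 hours and 6 days (interaction FDR = 8.5e-05 and 1.5e-04). TNF went from -0.11 at 48 hours to 1.36 at 6 days (interaction FDR = 0.00368 and 0.00522).

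TNFAIP6 was the only one of the 24 genes that also differed from 10 days with all libraries, where its log2 fold change was 1.54 (interaction FDR = 0.0261 and 0.0183). Without the Moon SF library CCL2 (interaction FDR = 0.0327) and CCL8 (0.0471) differed from 10 days as well, with log2 fold changes of 2.09 and 1.47 at that time. Other genes that differed from 10 days in both fits, chosen here after their values were seen, were actin ACTB (1.23 against 0.10, interaction FDR = 0.00849 and 0.0108), the tubulins TUBB (1.02 against -0.06, interaction FDR = 0.00717 and 0.00686) and TUBA1A (1.03 against -0.07, interaction FDR = 0.0309 and 0.00882) and the tropomyosin TPM4 (1.21 against 0.46, interaction FDR = 0.0146 and 0.0152), where the first value is the log2 fold change of ISF over SF at 6 days and the second that at 10 days. The replication helicase subunits MCM2 (0.82 against -0.43, interaction FDR = 0.0389 and 0.0357) and MCM3 (0.90 against -0.32, interaction FDR = 0.0309 and 0.0211) and the centromere histone CENPA (0.88 against -0.55, interaction FDR = 0.0309 and 0.0183) differed too. Actin and tubulin genes have near-identical relatives, so their reads are uncertain.

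In the glycolysis list, members that differed from 48 hours numbered 10 of 21 (12 without the Moon SF library), and its median log2 fold change went from 0.28 at 48 hours through 0.40 at 96 hours to 1.19 at 6 days, with 1.29 at 10 days. In the proliferation list the medians were 0.33, 0.72, 0.77 and -0.19, and 3 of 28 members (5 without the Moon SF library) lay higher at 6 days than at 10 days. In the neutrophil precursor list 3 of 6 members lay lower at 6 days than at 48 hours, in both fits, and the medians were 0.38, -0.94, -2.86 and -2.17. Each count at 6 days rests on 8 horses, and those at 48 hours and 10 days on 7. Moon had no library at 48 hours and Flash none at 10 days, so these comparisons between times differ in their horses.

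**Figure D5:**
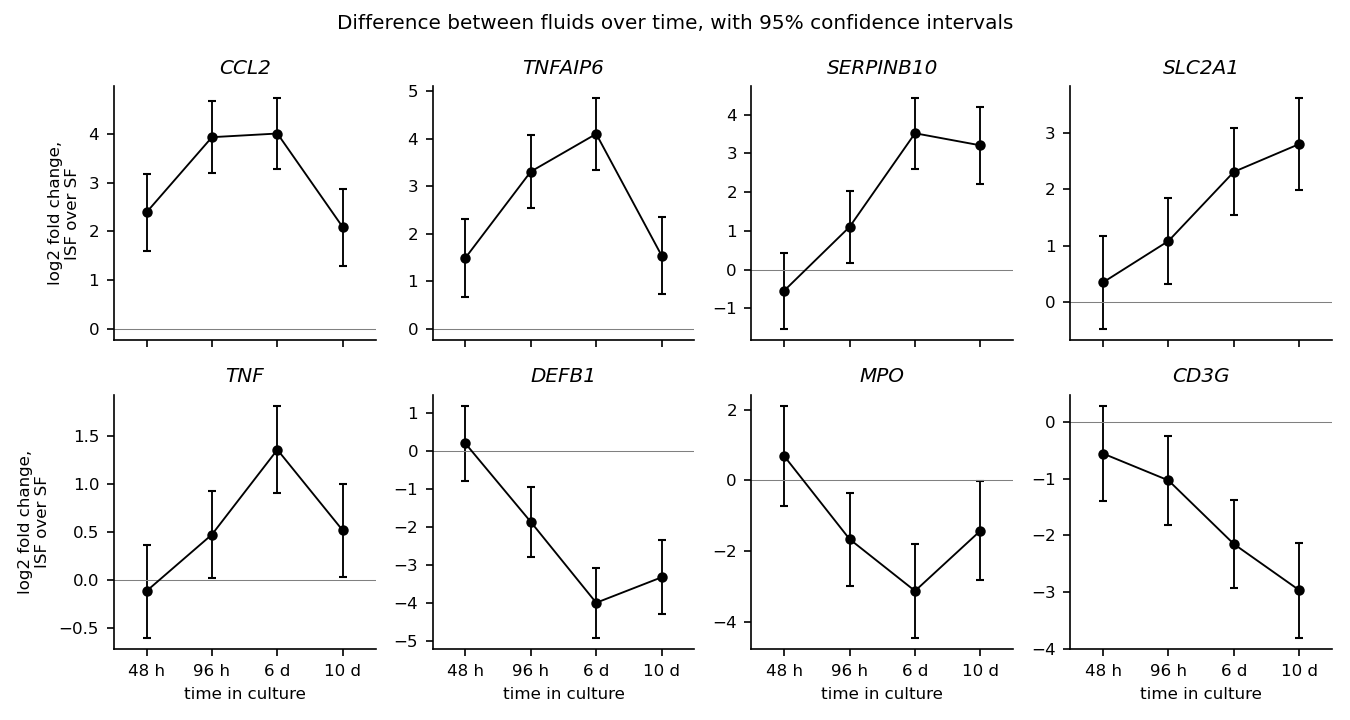
Log2 fold change of ISF over SF (vertical axis, bars are 95% confidence intervals of the limma fit with all libraries) at 48 hours, 96 hours, 6 days and 10 days for 8 named genes. The intervals of DEFB1 and MPO include 0 at 48 hours and lie below 0 at 6 days, and TNFAIP6 falls from 4.10 at 6 days to 1.54 at 10 days.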

How the data were processed

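RNA of BMNC from 8 horses was sequenced, with 68 libraries in 9 groups of fluid and time. Per the methods and the submitters' processing notes, the authors trimmed reads, aligned and counted them with STAR 2.7.2a on EquCab3.0, and used edgeR for GeTMM values, an RPKM-like unit that they deposited and that divides reads by gene length and scales libraries with trimmed mean factors. Strand use in counting is not given in the sources used here, so overlapping genes may share reads, and genes with close copies are uncertain. The authors compared groups with DESeq2, a count model.

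Groups came from the labels. Genes that reached 0.5 GeTMM in 7 or more of the 68 libraries (14570 of 30371) were tested with limma 3.58.1 (R 4.3.3), two-sided, on log2(GeTMM + 1), which understates changes of low genes, with Benjamini-Hochberg adjustment. Because the table holds no counts, this took the place of a count test. A gene length that turned the values into whole reads within 0.02 reads was found for all 24065 genes above 0. For genes above 0 in few libraries more than 1 length can fit, so their recovered reads are uncertain. A voom fit of limma on the recovered reads gave 3885 DEGs. Depth was 19.7 to 27.4 M (mega) reads on genes, and 1 read on a gene of 1 kb was worth 0.046 to 0.098 GeTMM. Libraries of a fluid came from different animals, and the 2 fluids from the same ones. Deviations of a horse's ISF and SF library from the group means correlated with r of 0.154 to 0.545, against medians of -0.106 to 0.0187 with other horses. In Lurie the highest r with another horse, 0.263, exceeded the 0.201 within the horse. Horse was added as a replicate block in alternatives. Other alternatives covered the pseudocount, filter, scaling, library weights, fold threshold and each horse left out.

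The code was tested on simulated data. The comparison, gene lists and named genes were chosen with earlier results of these data known. By rule the text names the 12 highest and 12 lowest fold changes among genes whose symbol no other entry shares. These genes had FDR under 0.05 with and without the Moon SF library, at least 5 GeTMM on average in a fluid and 1 direction in 8 horses. Entries without a symbol were left out, such as ENSECAG00000028085 with a log2 fold change of 4.28. Also named by rule are the 2 highest and 2 lowest members of each list, here mostly where they passed, and regulators named by the study. Other genes, among them those of small counts, were chosen after their values were seen. CD14 and other symbols without a single entry were not analysed here, and a few members of these sets are not reported here.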

Additional observations from a re-analysis of the deposited data

Results flagged for a closer look

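In 55 of 381 groups of 8 values examined, the highest or lowest library lay far from the other 7 by Dixon's criterion, which chance meets in about 1 in 20 groups. The Moon SF library was that library in 44 of them. It had the highest sum, 2.32 M GeTMM, the fewest tested genes above 0, 11807, and the fluids differed most in Moon, at 1.55 on the log2 scale. Its log2(GeTMM + 1) was far below the other SF libraries for ACLY (4.27), BHLHE40 (3.42), BHLHE41 (2.39), C3AR1 (2.37), C5AR1 (5.25), CCR1 (2.33), CDKN2B (2.83), DCSTAMP (1.92), EIF2AK3 (2.19), EIF4E (4.74), ELOVL5 (2.36), ERN1 (0.98), IGF2R (4.44), IKBKB (3.53), IL13RA1 (2.96), IL1RAP (0), ITGB3 (0), KLF9 (0), LRP1 (5.91), LSS (0.81), MAP3K14 (0.65), MMP14 (4.0), NFE2L2 (6.35), NLRP3 (1.94), SLC40A1 (0.97), STARD4 (1.08), STAT3 (2.94), TFE3 (3.03), TNF (1.87) and TNFRSF11A (1.0). It was far above them for BATF (7.55), CD40 (5.57), CD44 (9.13), CTSZ (13.60), NFKBIB (6.51), NFKBIE (6.45), RELB (4.75), RPS12 (13.16), TIMP1 (8.76), TIMP2 (10.70), TNIP1 (7.15) and TREM2 (11.32).

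Other libraries that lay far from their group were the SF library of RimRun for ASPA (lowest, 1.24), the SF library of Dealings for AZU1 (lowest, 4.53), the SF library of Flash for CXCL8 (highest, 4.67), the SF library of Dealings for ELANE (lowest, 4.0), the ISF library of Lurie for IL1RAP (highest, 3.87), the ISF library of Moon for IL4R (lowest, 8.31), the ISF library of Moon for KLF9 (lowest, 3.33), the SF library of RimRun for ME1 (highest, 5.95) and the ISF library of Catnip for TNFAIP6 (highest, 8.54), again as log2(GeTMM + 1). The sum of GeTMM was lowest in the ISF library of Dealings, at 0.944 M.

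The difference between fluids was not the same at 6 days as at 48 hours, by the interaction test, for 16 of the 24 genes with the highest or lowest fold change. These genes were chosen by their fold change at 6 days, which enters this test, so the count is raised by the choice. It was higher at 6 days by a log2 of 2.79 for CEMIP, 1.53 for HS3ST1, 2.28 for MSC, 4.07 for SERPINB10, 2.38 for SUCNR1 and 2.61 for TNFAIP6. The changes were negative, with -2.06 for ASPA, -4.53 for AZU1, -4.19 for DEFB1, -4.27 for ELANE, -2.03 for FAXDC2, -2.25 for HSD17B14, -2.63 for IMPA2, -2.70 for MLANA, -3.81 for MPO and -3.22 for S100A1. Compared with 10 days, the difference for TNFAIP6 was higher at 6 days by 2.56.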

How the results depend on the processing

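With the 16 libraries of 6 days alone 1995 DEGs were found between ISF and SF, and with the replicate block of horse in that fit 2418, whereas the block in the fit of all 68 libraries gave 5254. A threshold of 1 on the log2 scale left 1086. The other settings gave 3727 to 5447, and leaving out both 6-day libraries of a horse in turn gave 3805 to 5193. With libraries rescaled to the median sum and without the Moon SF library, 30.5% of DEGs were higher in ISF, against 55.1% with all libraries and 49.3% without the Moon SF library. The median log2 fold change of all genes was -0.13 in that setting, against -0.03 without the Moon SF library alone. That setting, the voom fit and the fit of 6 days without both Moon libraries were chosen after seeing the data.

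The count of genes that differed from 48 hours was 1441 with the replicate block, 1573 with library weights and 401 at a threshold of 1, and 550 to 1117 with 1 horse left out. The count against 96 hours was 0 to 3 with 1 horse left out, the 3 without Moon. The count against 10 days was 99 without the Moon SF library, 270 with the replicate block, 20 with a pseudocount of 0.1, 81 with rescaled sums, 86 with rescaled sums and without Moon SF, 81 with quantile normalization, 202 with library weights, 20 at a threshold of 1, 15 with voom and 10 to 126 with 1 horse left out.

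Of 187 genes named with values, 164 were DEGs with all libraries, of which 96 kept their call under all 23 alternatives and 0 changed direction. Calls were lost most often at the threshold of 1 (52 genes) and with the 16 libraries alone (38 genes, 30 with the block), and the block in the fit of 68 libraries ended 0 calls. In the lists of cholesterol synthesis, NF-kappaB, scavenger receptor and NRF2 genes, upregulated members outnumbered downregulated ones with all libraries, and the reverse held with rescaled sums and without Moon SF. Of the 23 genes that were not DEGs with all libraries, 12 were DEGs under at least 1 alternative, among them IL10 with the replicate block (FDR = 0.0494) and TREM2 with the block in the fit of 6 days without both libraries of Moon (FDR = 0.0148). Directions changed for 4 genes that were not DEGs. CD68 had -0.00719 with voom, -0.0155 with rescaled sums and without Moon SF, and -0.0243 to 0.15 with 1 horse left out. IKBKB had 0.00231 with a pseudocount of 0.1, 0.00123 with rescaled sums and -0.25 to 0.0733 with 1 horse left out. The ranges with 1 horse left out were -0.23 to 0.000249 for MVK and -0.0578 to 0.32 for NFKBIB. The cause was not tested. Depth limits the values of genes near 0, where 1 read on a gene of 1 kb was worth 0.046 to 0.098 GeTMM.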
